A study of Mus musculus with 13 samples.

Results

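The transcripts of 8 suppressive mediators of regulatory T cells (Tregs) were followed in sorted mouse CD4 T cells of the Treg lineage with and without the NF-kB protein c-Rel, the product of the Rel gene. The mediators were taken by gene symbol, Fgl2, Il10, Ebi3, Il12a, Entpd1, Nt5e, Adora2a and Lrrc32, and all 8 were found among the 22048 genes shared by the 3 deposited count tables. The mice were cRel-/-Foxp3rfp (KO) and their controls cRel+/+Foxp3rfp (WT), both C57BL6/J and both carrying the Foxp3rfp reporter, with no other treatment or age stated in the labels. CD4 T cells were enriched magnetically and sorted by flow cytometry into pre-Tregs (3 KO and 2 WT libraries), thymic de novo Tregs (2 and 2) and splenic tTregs (2 and 2), 13 bulk RNA libraries in all. No label says which libraries come from separate animals, so the p-values below measure only the spread between these libraries.

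Tregs restrain other immune cells partly with the molecules described here. FGL2 is a secreted fibrinogen-like protein and IL-10 a secreted cytokine, and EBI3 pairs with the IL-12 alpha chain encoded by Il12a to form the cytokine IL-35. CD39, encoded by Entpd1, and CD73, encoded by Nt5e, are surface enzymes that break extracellular ATP down to adenosine, which T cells sense through the adenosine receptor encoded by Adora2a. Lrrc32 encodes GARP, the surface protein that holds latent TGF-beta on activated Tregs. c-Rel is known for its role in thymic Treg development.

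Library totals were 16133876 to 29866696 counts in KO and 13656304 to 13698722 in WT pre-Tregs, 25122095 to 26968168 in KO and 27455039 to 28235996 in WT de novo Tregs, and 32291272 to 35114430 in KO and 33423147 to 34319459 in WT splenic Tregs. Levels are normalised CPM, counts scaled to library size, and 3 counts in a library correspond to 0.0880 to 0.218 CPM. Cd3e averaged 814 to 1093 CPM and Cd4 682 to 890 CPM over the 6 groups. Foxp3, the defining Treg transcription factor, averaged 745 to 830 CPM in the de novo and splenic groups, against 38.1 CPM in KO and 66.9 CPM in WT pre-Tregs. Rel transcripts remained in the KO libraries. In pre-Tregs they had 54.9, 52.2 and 65.9 CPM in KO and 103.5 and 99.6 CPM in WT libraries, without overlap. The log2 fold change of KO over WT there was −0.80 (95% interval −1.22 to −0.39, adjusted p = 0.552 by the edgeR quasi-likelihood test). De novo Tregs had 92.0 and 101.3 CPM of Rel in KO and 104.3 and 101.7 CPM in WT libraries. Splenic Tregs had 43.34 and 46.05 CPM in KO and 47.15 and 56.56 CPM in WT libraries. The labels do not give the deleted part of Rel, so a gene-level count does not check the genotype. In bulk libraries, fewer cells that express a gene and less RNA per cell cannot be told apart.

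Fgl2 had the greatest genotype difference among the mediators tested within a stage. In de novo Tregs it fell to 0.179 of the WT level in KO cells, and the call was made under each alternative run for that comparison, with every single library left out in turn. It did not follow that pattern at the other stages, where KO libraries lay above or among the WT libraries. Ebi3 and Adora2a were also called lower in KO de novo Tregs, by smaller amounts and with calls that depended on single libraries.

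In de novo Tregs, Fgl2 (chr5:21372642-21378374, plus strand, GRCm38 in the deposited annotation) was read 78 and 102 times in the KO libraries, or 3.28 and 4.05 CPM, against 484 and 600 times in the WT libraries, or 18.6 and 22.3 CPM. Both KO libraries lay far below both WT libraries. The log2 fold change of KO over WT was −2.48 (SE 0.20, 95% interval −2.91 to −2.05, adjusted p = 2.03e-05 by the edgeR quasi-likelihood test with Benjamini-Hochberg adjustment over 11855 genes). Leaving out each library in turn gave −2.63 to −2.34.

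In pre-Tregs, Fgl2 had 10.2, 9.50 and 5.72 CPM in the KO libraries, against 5.37 and 3.26 CPM in the WT libraries. Each KO library lay above both WT libraries, the third by little. The log2 fold change was 1.00 (SE 0.40, 95% interval 0.08 to 1.92, adjusted p = 0.72 by edgeR), which did not pass the threshold. In splenic Tregs the KO libraries had 26.2 and 26.9 CPM, against 22.5 and 28.3 CPM in the WT libraries, so the KO values lay within the WT range (log2 fold change 0.06, 95% interval −0.28 to 0.41).

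The difference between stages was tested directly. The genotype effect on Fgl2 in de novo Tregs minus that in pre-Tregs was −3.46 on the log2 scale (SE 0.42, 95% interval −4.36 to −2.56, adjusted p = 0.00601 by edgeR), and it kept an adjusted p of 0.0451 or less without any single library. Fgl2 was the 1 mediator of 8 called in this test, in which 0.0842% of all 13058 genes were called. The effect in splenic minus de novo Tregs was 2.54 (SE 0.41, 95% interval 1.66 to 3.42, adjusted p = 0.0612 by edgeR) and missed the threshold, with 0 of 8 mediators and 0.00766% of genes called. For that difference DESeq2 gave an adjusted p of 7.07e-06 and limma-voom 0.0474. Fits with 1 library left out called it in some cases and not in others. The effect in splenic minus pre-Tregs was −0.92 (95% interval −1.78 to −0.06, adjusted p = 0.384 by edgeR), with 0 of 8 mediators and 0.214% of genes called.

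The promoter windows of the called mediators are shown because a DNA-binding factor was removed. RefSeq (GRCm38.p6) gave windows of 250 bases before to 50 bases after the gene start for 5 of the 8 mediators. 3 motifs were searched on both strands: the NF-kB kB consensus, the AP-1 site TGANTCA and the forkhead site TGTTTAC. Capitals mark a match, which describes letters only and shows no binding. The Fgl2 window, chr5:21372423-21372722 on the plus strand, held 1 AP-1 match, starting 16 bases before the RefSeq start, a motif held by 7.81% of 32851 promoter windows. The deposited annotation starts Fgl2 further upstream, so the match lies after that start.
Fgl2: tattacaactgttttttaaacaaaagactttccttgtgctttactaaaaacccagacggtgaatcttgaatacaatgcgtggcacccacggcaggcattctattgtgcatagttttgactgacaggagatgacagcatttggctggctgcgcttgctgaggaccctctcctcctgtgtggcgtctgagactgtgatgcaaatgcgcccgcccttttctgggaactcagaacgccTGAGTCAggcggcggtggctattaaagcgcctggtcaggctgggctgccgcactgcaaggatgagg
The Ebi3 window, chr17:55952373-55952672 on the plus strand, held 1 kB match, starting 44 bases before the RefSeq start, a motif held by 4.51% of the windows.
Ebi3: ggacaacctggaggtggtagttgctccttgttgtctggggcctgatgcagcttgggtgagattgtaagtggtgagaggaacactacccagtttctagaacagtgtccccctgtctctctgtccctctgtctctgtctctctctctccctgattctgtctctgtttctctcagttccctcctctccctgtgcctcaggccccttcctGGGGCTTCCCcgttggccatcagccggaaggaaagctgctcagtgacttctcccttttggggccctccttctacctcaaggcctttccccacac
Fgl2, Il12a, Entpd1 and Nt5e had no kB match in these windows, and the AP-1 site matched in Fgl2 alone. The forkhead site, held by 3.65% of all windows, matched in none of the windows of Fgl2, Ebi3, Il12a, Entpd1 and Nt5e. Adora2a, Il10 and Lrrc32 had no entry.

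Ebi3 (chr17:55952623-55957021, plus strand), the shared chain of IL-35 and IL-27, had 10.9 and 12.1 CPM in the KO de novo libraries, against 17.1 and 17.6 CPM in the WT de novo libraries. The groups did not overlap. The log2 fold change was −0.60 (SE 0.15, adjusted p = 0.0425 by edgeR), and the call was lost on leaving out any single library, with an adjusted p of 0.0693 to 0.184. In splenic Tregs Ebi3 had 35.8 and 42.6 CPM in KO and 38.5 and 39.9 CPM in WT libraries, a log2 fold change of 0.00 (95% interval −0.30 to 0.30). In pre-Tregs it had 1.38, 2.05 and 3.603 CPM in KO and 0.435 and 3.54 CPM in WT libraries, ranges that overlapped in part. Ebi3 shares 270 exon bases with the antisense gene Gm16712, and since the strandedness of the counting is not given in the sources used here, reads of the pair cannot be told apart.

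Il12a (chr3:68690644-68698547, plus strand), the other chain of IL-35, was close to absent. It was read 8, 5 and 12 times in the KO pre-Treg libraries, against 0 and 1 times in the WT pre-Treg libraries. De novo Tregs gave 1 and 1 reads in KO and 3 and 1 in WT libraries, and splenic Tregs gave 9 and 0 in KO and 0 and 8 in WT libraries. The gene passed the count filter in none of the stage-wise fits, and whether IL-35 chains differ in balance between genotypes was not detectable at this depth. Fits over all 13 libraries kept it through the KO pre-Treg libraries with 8 and 12 counts, so it is among the 8 mediators there. With 0 to 9 counts in the de novo and splenic libraries it could hardly be called in the step between them.

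Il10 (chr1:131019845-131024974, plus strand) was a transcript of the splenic libraries. It had 218 and 231 reads, or 6.40 and 7.41 CPM, in the KO splenic libraries, against 99 and 87 reads, or 3.07 and 2.61 CPM, in the WT splenic libraries. Both KO libraries lay above both WT libraries, at 2.43 times the WT mean. The log2 fold change was 1.28 (SE 0.25, 95% interval 0.71 to 1.86) with an adjusted p of 0.0561 by edgeR, just over the threshold. It was called by DESeq2 (adjusted p = 0.0102), which called more genes in all than edgeR. With a splenic library left out the spread came from the other genotype's pair alone, and not every such fit called Il10. In the thymus its counts were 8, 1 and 5 in KO and 0 and 1 in WT pre-Tregs, and 2 and 2 in KO and 15 and 4 in WT de novo Tregs, too few for the stage-wise fits.

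Entpd1 (chr19:40612366-40741602, plus strand), the CD39 gene, had 57.9 and 52.4 CPM in the KO splenic libraries, against 38.6 and 35.0 CPM in the WT splenic libraries. The groups did not overlap. The log2 fold change was 0.58 (SE 0.12, 95% interval 0.30 to 0.87, adjusted p = 0.0666 by edgeR), while DESeq2 gave an adjusted p of 0.00572. At the de novo stage it had 24.7 and 28.8 CPM in KO and 15.2 and 24.2 CPM in WT libraries, a log2 fold change of 0.44 (adjusted p = 0.252 by edgeR). That value was called at 0.82 without WT replicate 2 (adjusted p = 0.0137 by edgeR). In pre-Tregs the KO libraries had 2.53, 1.65 and 5.72 CPM, against 1.60 and 1.84 CPM in the WT libraries, with a log2 fold change of 0.94 (95% interval −0.42 to 2.29).

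Nt5e (chr9:88327197-88372092, plus strand), the CD73 gene, had 513 and 482 CPM in KO and 401 and 406 CPM in WT splenic libraries. The groups did not overlap, but the log2 fold change of 0.30 (SE 0.09, 95% interval 0.10 to 0.50) was not called (adjusted p = 0.159 by edgeR). With a KO library left out it was called, but the spread of such a fit came from the WT pair alone, and many more genes were called. De novo Tregs had 239 and 246 CPM in KO and 242 and 261 CPM in WT libraries, where the 95% interval of the log2 fold change ran from −0.22 to 0.12. Pre-Tregs had 30.8, 29.1 and 43.8 CPM in KO and 44.1 and 73.1 CPM in WT libraries, with the KO values below the WT values and a log2 fold change of −0.75 (adjusted p = 0.72 by edgeR).

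Adora2a (chr10:75316943-75334788, plus strand), which encodes the receptor for the product of both enzymes, had 15.1 and 20.3 CPM in the KO de novo libraries, against 25.2 and 31.7 CPM in the WT de novo libraries. Both KO libraries lay below both WT libraries. The log2 fold change was −0.68 (SE 0.17, 95% interval −1.05 to −0.32, adjusted p = 0.0339 by edgeR), and the call was lost without KO replicate 1 (adjusted p = 0.139) or WT replicate 2 (0.174). In pre-Tregs it had 16.2, 24.0 and 12.9 CPM in KO and 9.79 and 12.5 CPM in WT libraries, a log2 fold change of 0.69 (adjusted p = 0.72 by edgeR). Splenic libraries overlapped, at 44.7 and 54.0 CPM in KO and 48.7 and 49.2 CPM in WT. The genotype effect in de novo minus pre-Tregs was −1.36 (95% interval −2.15 to −0.58, adjusted p = 0.209 by edgeR), called by DESeq2 (adjusted p = 0.0321).

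Lrrc32 (chr7:98489283-98502181, plus strand), the GARP gene, had 15.8, 52.2 and 32.5 CPM in KO and 61.5 and 96.9 CPM in WT pre-Treg libraries. Every KO library lay below both WT libraries, with a log2 fold change of −1.22 (SE 0.44, 95% interval −2.24 to −0.20) that was not called (adjusted p = 0.72 by edgeR). A replicate block, described in the last section, did call it, and raised the count over all genes as well. Foxp3 had 19.8, 49.1 and 45.5 CPM in the same KO libraries and 32.5 and 101 CPM in the same WT libraries, with its lowest and highest values where those of Lrrc32 were, and its part in the Lrrc32 values was not tested. At the de novo stage Lrrc32 had 682 and 870 CPM in KO and 702 and 865 CPM in WT libraries, with the genotypes overlapping and a 95% interval of the log2 fold change of −0.27 to 0.25. Splenic Tregs had 762 and 634 CPM in KO and 741 and 778 CPM in WT libraries (log2 fold change −0.12, 95% interval −0.36 to 0.12). The value without KO replicate 1 was −0.25, in a fit whose spread came from the WT pair alone.

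**Figure D1:**
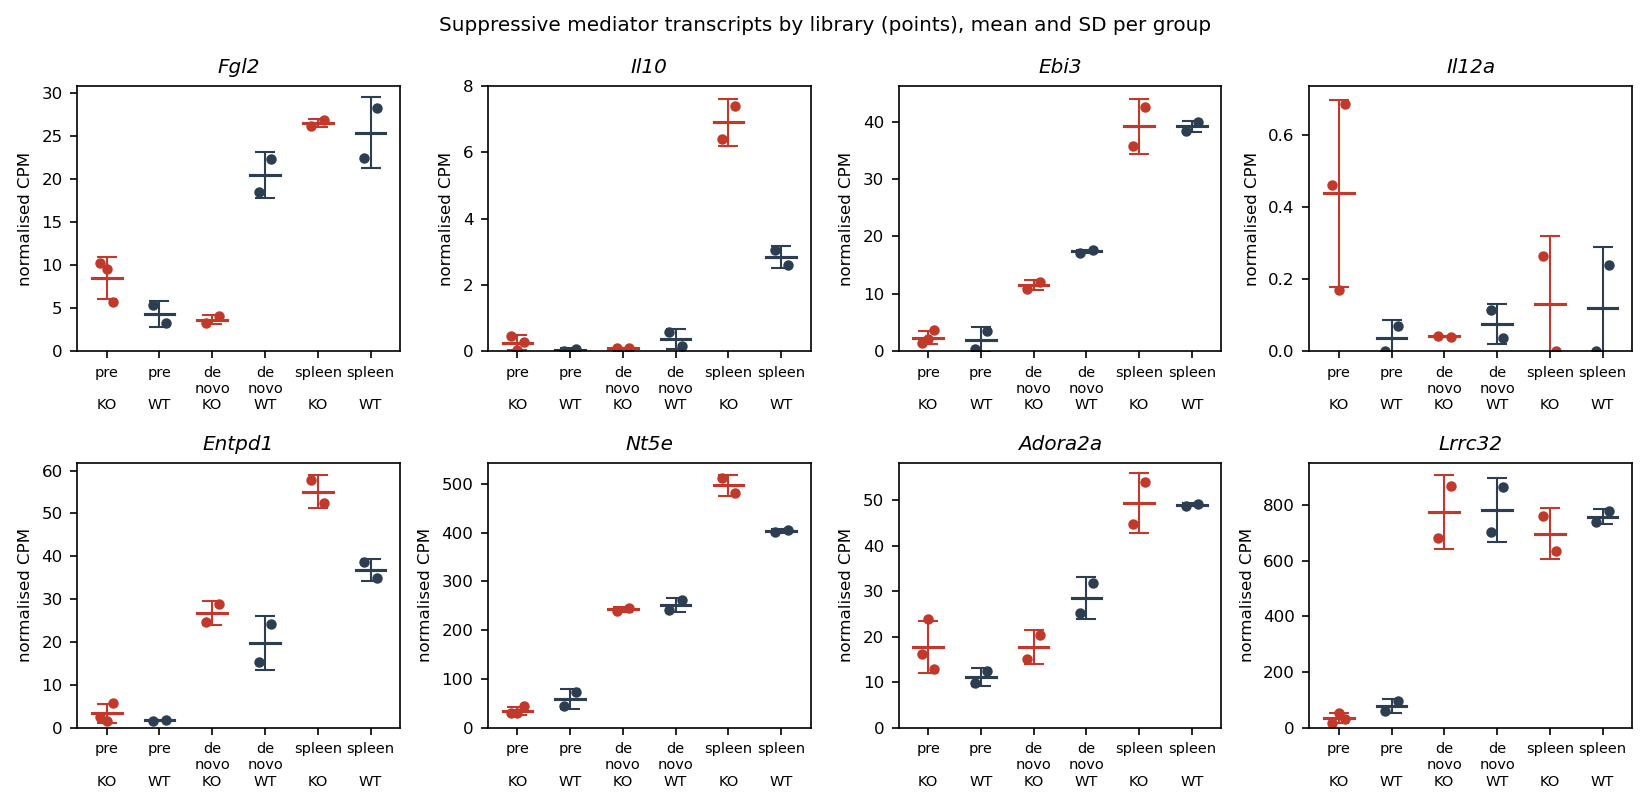
Normalised CPM (vertical axes, linear from 0) of the 8 mediators in each library, as points, with the group mean as a bar and the SD as whiskers, KO in red left of WT in dark blue at each stage. Fgl2 stands at 3.28 and 4.05 CPM in KO de novo Tregs, against 18.6 and 22.3 CPM in WT de novo Tregs, while the KO and WT splenic points of Fgl2 lie together.

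Counted over the mediators that passed the count filter, 0 of 6 were called in pre-Tregs, where 0% of 14746 genes were called by edgeR, 969 genes had an unadjusted p under 0.05 and DESeq2 called 88 genes. In de novo Tregs 0 of 6 rose and 3 of 6 fell in KO cells (Fgl2, Adora2a and Ebi3), beside 2.92% of 11855 genes called higher and 3.54% called lower. In splenic Tregs 0 of 7 rose and 0 of 7 fell by edgeR, beside 0.612% of 12264 genes called higher and 0.758% called lower, and DESeq2 called 2 mediators, Il10 and Entpd1, and 526 genes in all. Over all genes 1749 had an unadjusted p under 0.05 in that comparison. With 1 genotype coefficient over the 3 stages 0 of 8 were called in either direction, against 0.314% of 13058 genes called higher and 0.536% called lower. The median log2 fold change of the tested mediators was 0.47 at the pre-Treg stage (0.03 over all genes tested), −0.32 at the de novo stage (0.00) and 0.06 in the spleen (0.00).

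**Figure D2:**
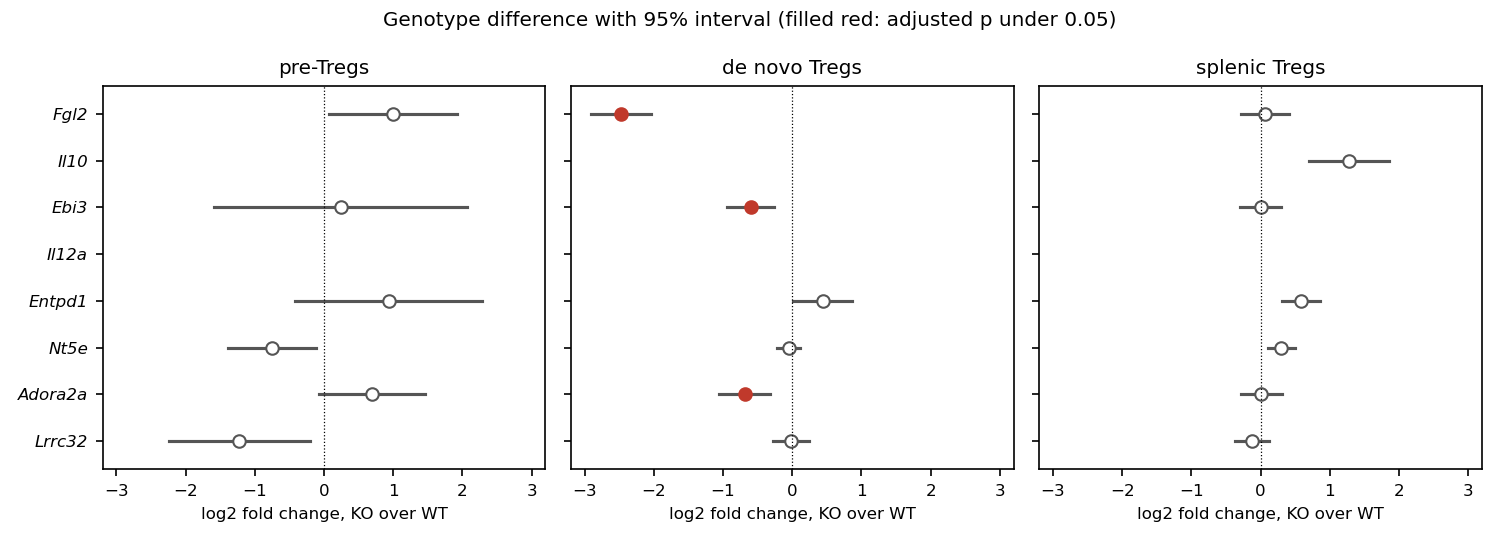
Log2 fold change of KO over WT (horizontal axes) for each mediator tested at a stage, with the 95% interval as a line and filled red points for an adjusted p under 0.05. The de novo panel holds the 3 called mediators, Fgl2 at −2.48, Adora2a at −0.68 and Ebi3 at −0.60, and the widest intervals are in pre-Tregs.

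Lrrc32, Entpd1, Nt5e and Ebi3 were higher in de novo Tregs than in pre-Tregs in both genotypes. Each stage has its own count table, and the spleen is also another tissue, so stage, table and tissue cannot be told apart here. In KO cells 4 of 8 mediators rose and 1 fell, where 15.4% of 13058 genes were called higher and 17% lower. In WT cells 6 of 8 rose and 0 fell, where 16.1% of genes were called higher and 14.7% lower. Both genotypes had higher Lrrc32, by 4.53 on the log2 scale in KO and 3.31 in WT, higher Entpd1, by 3.06 in KO and 3.52 in WT, and higher Nt5e, by 2.81 in KO and 2.10 in WT. Ebi3 rose by 2.30 in KO and 3.12 in WT cells.

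Fgl2 took opposite courses over that step. It fell by 1.21 (log2, SE 0.28, adjusted p = 0.00621 by edgeR) in KO cells and rose by 2.25 (SE 0.31, adjusted p = 0.000421 by edgeR) in WT cells. The KO call was lost without de novo KO replicate 1 (adjusted p = 0.0725). Adora2a had a log2 fold change of −0.01 (95% interval −0.53 to 0.51) in KO cells, and in WT cells it rose by 1.35 (adjusted p = 0.00392 by edgeR), a call lost without pre-Treg WT replicate 1 (adjusted p = 0.0515).

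From de novo to splenic Tregs 5 of 8 mediators rose in KO cells and 0 fell, where 6.48% of genes were called higher and 6.39% lower. In WT cells 1 of 8 rose, Il10, and 0 fell, where 3.5% of genes were called higher and 3.95% lower. In KO cells Fgl2 was higher in the spleen by 2.85 on the log2 scale (SE 0.31, adjusted p = 0.000112 by edgeR), a call kept without any single library. The WT difference for Fgl2 was 0.31 (95% interval −0.29 to 0.91). Il10 had 218 and 231 counts in splenic and 2 and 2 counts in de novo KO libraries, a fitted log2 difference of 6.32 (SE 0.91, edgeR adjusted p = 0.000852) that rests on those few thymic counts.

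The other splenic calls were less steady. In KO cells Adora2a rose by 1.48, Ebi3 by 1.77 and Nt5e by 1.04 on the log2 scale. Adora2a lost its call without de novo KO replicate 1 (adjusted p = 0.0501), Nt5e without de novo KO replicate 1 or 2 (0.0779 and 0.0657), and Ebi3 without any of the 4 libraries (0.0668 to 0.174). The WT call of Il10 (log2 fold change 2.96, adjusted p = 0.0286 by edgeR) was also lost without any of the 4 libraries. Lrrc32 stayed level, with a log2 fold change of −0.15 (95% interval −0.97 to 0.66) in KO and −0.05 (95% interval −0.86 to 0.77) in WT cells.

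Levels per kilobase of gene length set the genes roughly side by side. The deposited length is that of the annotated gene, with 53 exon intervals for Entpd1 and 2 for Fgl2. It need not be that of the transcript expressed. By this measure Lrrc32 was the most abundant mediator in all 6 groups. Its level was 7.15, 166 and 149 CPM per kb in KO pre-Tregs, de novo and splenic Tregs, and 16.9, 167 and 162 CPM per kb in the WT groups. In KO pre-Tregs the Lrrc32 range over libraries, 3.36 to 11.1, contained that of Adora2a, 5.10 to 9.46, so this pair cannot be ordered there. In splenic Tregs Nt5e came next with 59.1 CPM per kb in KO and 48.0 in WT, followed by Ebi3 with 33.5 in KO and 33.5 in WT, and Adora2a with 19.5 in KO and 19.3 in WT. Entpd1 had 9.88 in KO and 6.59 in WT. Il10 had 5.27 in KO and 2.17 in WT, and Fgl2 averaged 6.70 in WT, with 6.91 and 7.09 CPM per kb in the KO libraries. The KO ranges of these last genes did not overlap, whereas Entpd1 (6.27 to 6.92) and Fgl2 (5.93 to 7.47) overlapped in WT. Il12a stood last at 0.0776 in KO and 0.0706 in WT splenic Tregs.

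**Figure D3:**
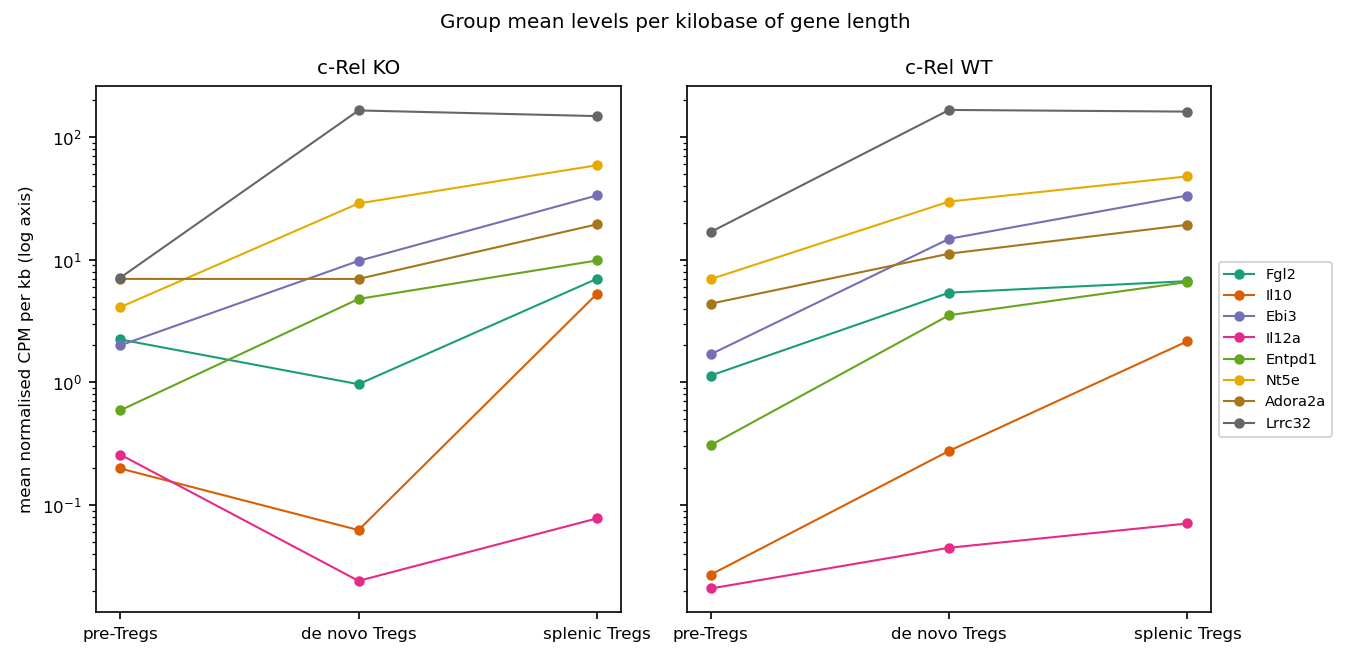
Group mean level in normalised CPM per kb of gene length (vertical axis, log scale) over the stages (horizontal axis), with KO left and WT right and 1 line for each mediator. The Fgl2 line dips to 0.967 CPM per kb in KO de novo Tregs, against 5.398 CPM per kb in WT de novo Tregs, and Lrrc32 lies between 149 and 167 in the de novo and splenic groups.

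The genes around the mediators were read in 5 lists taken from textbook roles and chosen with earlier results of these data known. The counts in them describe these lists only. They stand beside the 2.92% of all tested genes called higher and 3.54% called lower in KO de novo Tregs. In de novo Tregs the list of receptor and regulator genes of IL-10 moved most towards lower values. Of 13 tested members 1 rose and 6 fell, with a median log2 fold change of −0.56 beside 0.00 over all genes. The IL-10 receptor gene Il10ra rose to 160 CPM in KO, against 85.7 CPM in WT (log2 fold change 0.90, SE 0.08, adjusted p = 5.57e-05 by edgeR). The aryl hydrocarbon receptor gene Ahr had 14.9 CPM in KO and 38.2 CPM in WT cells (−1.35, SE 0.12, adjusted p = 5.57e-05), and the transcription factor gene Irf4 18.8 CPM in KO and 39.0 CPM in WT cells (−1.05, SE 0.13, adjusted p = 0.000468). Leaving out 1 library gave 1 higher and 4 to 6 lower.

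The list of other suppressive molecules had 1 of 27 tested members higher and 9 lower in KO de novo Tregs, with a median of −0.24. Il1r2, a decoy receptor for IL-1, had 8.98 CPM in KO and 77.8 CPM in WT cells (log2 fold change −3.11, SE 0.13, adjusted p = 1.61e-07 by edgeR). Cd83, an activation marker, had 97.4 CPM in KO and 370 CPM in WT cells (−1.93, adjusted p = 1.86e-07), and the inhibitory receptor gene Tigit 2.80 CPM in KO and 15.5 CPM in WT cells (−2.48, adjusted p = 0.000147). The 1 member called higher was Ctla4, chosen for mention after its value was seen, with 653 CPM in KO and 487 CPM in WT cells. Leaving out 1 library gave 1 higher and 7 to 9 lower.

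Calls were fewer in the remaining de novo lists. Of 13 tested adenosine pathway genes 0 rose and 2 fell, Adk, which phosphorylates adenosine (74.5 CPM in KO, 121 CPM in WT, log2 fold change −0.70, adjusted p = 0.00199 by edgeR), and P2rx7, an ATP receptor (72.9 CPM in KO, 101 CPM in WT, −0.47, adjusted p = 0.0177). Of 8 IL-12 family genes 1 rose, Il12rb2 (8.34 CPM in KO, 3.90 CPM in WT, log2 fold change 1.10, adjusted p = 0.0424 by edgeR), and 1 fell, Il12rb1 (14.9 CPM in KO, 31.7 CPM in WT, −1.09, adjusted p = 0.00388). These encode the chains of the IL-12 receptor. Of 17 TGF-beta genes 1 rose, Furin, a protease that cleaves the TGF-beta precursor (177 CPM in KO, 124 CPM in WT, log2 fold change 0.52, adjusted p = 0.00652 by edgeR), and 1 fell, Nrros (195 CPM in KO, 243 CPM in WT, −0.32, adjusted p = 0.0255), whose product anchors latent TGF-beta on myeloid cells. The P2rx7 call was lost without KO replicate 1 (adjusted p = 0.0649) or WT replicate 2 (0.104), the Il12rb2 call without KO replicate 1 (0.268) or WT replicate 2 (0.172), and the Nrros call without KO replicate 2 (0.0887), WT replicate 1 (0.112) or WT replicate 2 (0.119). The medians were 0.01, −0.08 and −0.08 for the adenosine, IL-12 family and TGF-beta lists.

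With the spread shared over the 13 libraries, which left 100 genes called in place of 766, several of these de novo calls were lost. The adjusted p was then 0.0731 for Adk, 0.0854 for Ahr, 0.127 for Il12rb1, 0.26 for Furin, 0.451 for Nrros, 0.519 for Ctla4, 0.573 for Il12rb2 and 0.659 for P2rx7. Il10ra, Irf4, Il1r2, Cd83 and Tigit kept their calls. Il12rb2 was also lost with limma-voom (adjusted p = 0.0635).

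In splenic Tregs, where 0.612% of all tested genes were called higher and 0.758% lower, 0 of 13 adenosine, 0 of 9 IL-12 family and 0 of 18 TGF-beta genes were called. The IL-10 list had 1 of 13 called, Il10ra, with 273 CPM in KO and 176 CPM in WT cells (log2 fold change 0.64, adjusted p = 0.0362 by edgeR), lost without WT replicate 1 (0.0533) or WT replicate 2 (0.27). Of 28 other suppressive molecules 1 rose and 5 fell. Ctla4, the co-inhibitory receptor gene, rose to 551 CPM in KO, against 304 CPM in WT (0.86, adjusted p = 0.0196). Il1r2 fell to 20.9 CPM in KO, against 57.2 CPM in WT (−1.45, adjusted p = 0.00424), and Penk, which encodes proenkephalin, fell to 139 CPM in KO, against 253 CPM in WT (−0.87, adjusted p = 0.0295). The Penk call was lost without WT replicate 2 (adjusted p = 0.0572). With the spread shared over the 13 libraries, which left 60 genes called in place of 168, all 4 named splenic calls were lost, at an adjusted p of 0.0501 for Ctla4, 0.0614 for Il10ra, 0.293 for Il1r2 and 0.863 for Penk.

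Splenic list counts depended on the libraries used, as did those over all genes, where 2508 were called without KO replicate 1, 1548 without KO replicate 2, 278 without WT replicate 1 and 220 without WT replicate 2, in place of 168. Without KO replicate 1 the other suppressive molecules had 3 higher and 10 lower, the IL-10 list 2 and 4, the TGF-beta list 1 and 3, the adenosine list 1 and 3 and the IL-12 list 1 and 2. Without KO replicate 2 the same lists, in the same order, had 1 and 12, 2 and 1, 3 and 0, 1 and 2, and 1 and 0. Without WT replicate 1 or 2 no list other than the other suppressive molecules had a call, and that list had 1 higher and 3 or 1 lower. In pre-Tregs 0 members of any list were called, of 12, 9, 13, 17 and 26 tested in the adenosine, IL-12, IL-10, TGF-beta and other lists. Over the 3 stages together Il10ra (0.68, adjusted p = 0.00092 by edgeR) and Furin (0.42, adjusted p = 0.032) rose and Cd83 (−1.47, adjusted p = 0.00381) fell.

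**Figure D4:**
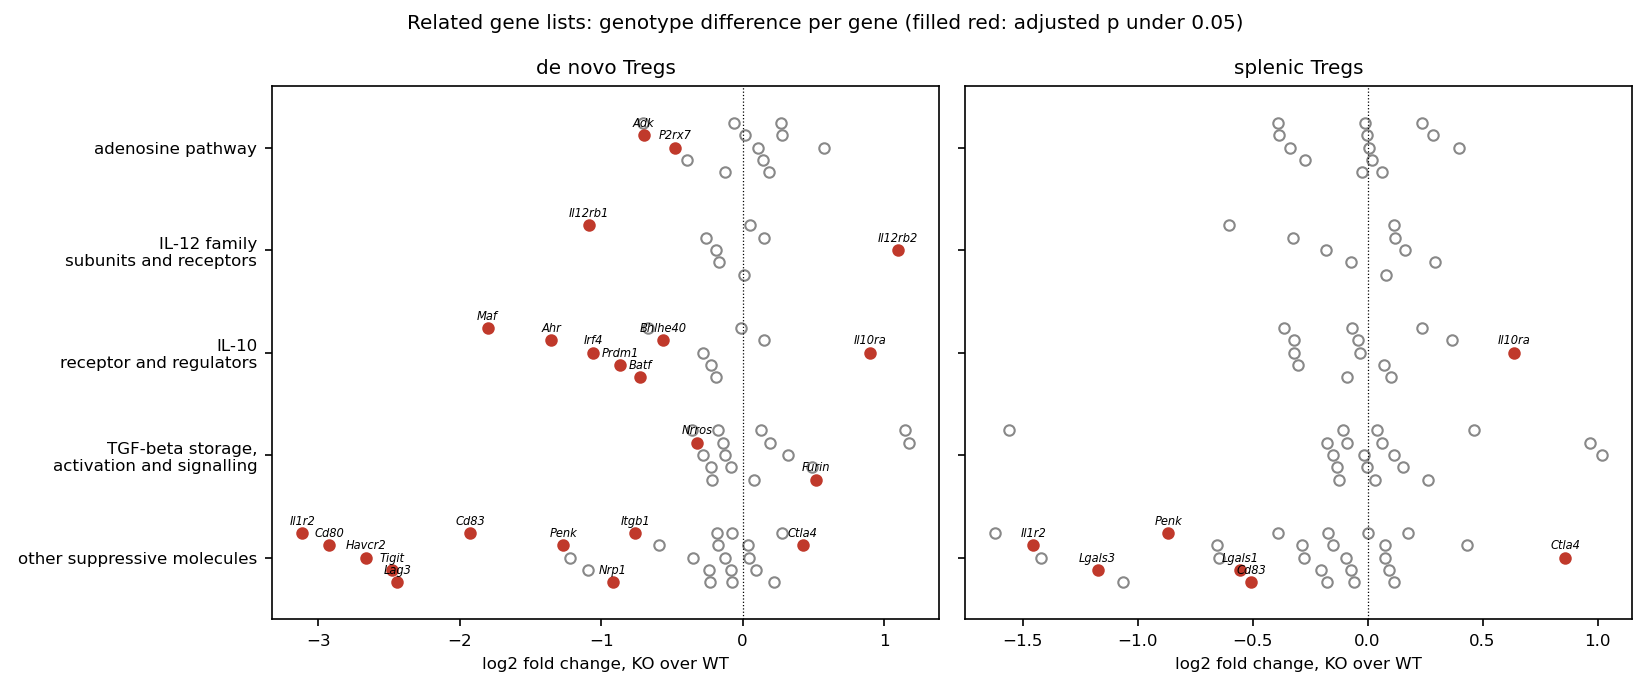
Log2 fold change of KO over WT (horizontal axes) for every tested gene of the 5 related lists in de novo Tregs (left) and splenic Tregs (right), with filled red, named points for an adjusted p under 0.05. Il1r2 lies furthest left at −3.11 in de novo Tregs, and the IL-10 list has 6 red points left of 0 and Il10ra to the right.

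Across the 13 libraries the genes whose levels were most like each mediator were found by Pearson's r of log2 CPM over 13058 genes, as a description in which all points share the stage and table differences. For Fgl2 these were Ccl5, a chemokine gene (r = 0.93), and Metrnl, a secreted hormone gene (0.93). Ccl5 had 1.79 CPM in KO and 15.02 CPM in WT de novo Tregs, and 13.7 CPM in KO and 24.9 CPM in WT splenic Tregs. For Lrrc32 they were Cyth4 and Foxp3 (both 0.99), for Nt5e Ttc39b (1.00) and Glipr2 (0.99), and for Entpd1 Gbp2b (0.99) and Adamtsl4 (0.98). Those for Ebi3 were Fam160a1 (0.98) and Sspo (0.97), for Il10 Tmbim1 and Axl (both 0.97), and for Adora2a G6pc3 (0.98) and Klrg1 (0.97). Among the mediators themselves r was highest between Entpd1 and Nt5e (0.95), Nt5e and Lrrc32 (0.95) and Ebi3 and Nt5e (0.94), and for Fgl2 it was highest with Adora2a (0.88).

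Markers of other cells were read beside these results, since Fgl2 is also made by macrophages. The summed level of 11 myeloid and dendritic markers was 16.8 and 5.76 CPM in KO and 19.2 and 10.2 CPM in WT de novo libraries, overlapping ranges in which 0 of 7 tested markers were called by edgeR (their median log2 fold change was −0.81). Csf1r, the macrophage growth factor receptor gene, averaged 0.167 CPM in KO and 0.512 CPM in WT de novo Tregs, and Itgax was at 0 in WT. In pre-Tregs the sum was 99.6, 22.9 and 37.2 CPM in KO and 8.05 and 31.6 CPM in WT libraries, with the top value in the KO library that also had the most Fgl2. In splenic Tregs it was 39.7 and 6.42 CPM in KO, the lower library with 5 of 11 markers at 0, and 52.5 and 85.7 CPM in WT libraries. Fgl2 was 26.2 and 26.9 CPM in those KO libraries and 22.5 and 28.3 CPM in those WT libraries, in the same order. The part of these markers in the Fgl2 values of any stage was not tested.

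**Figure D5:**
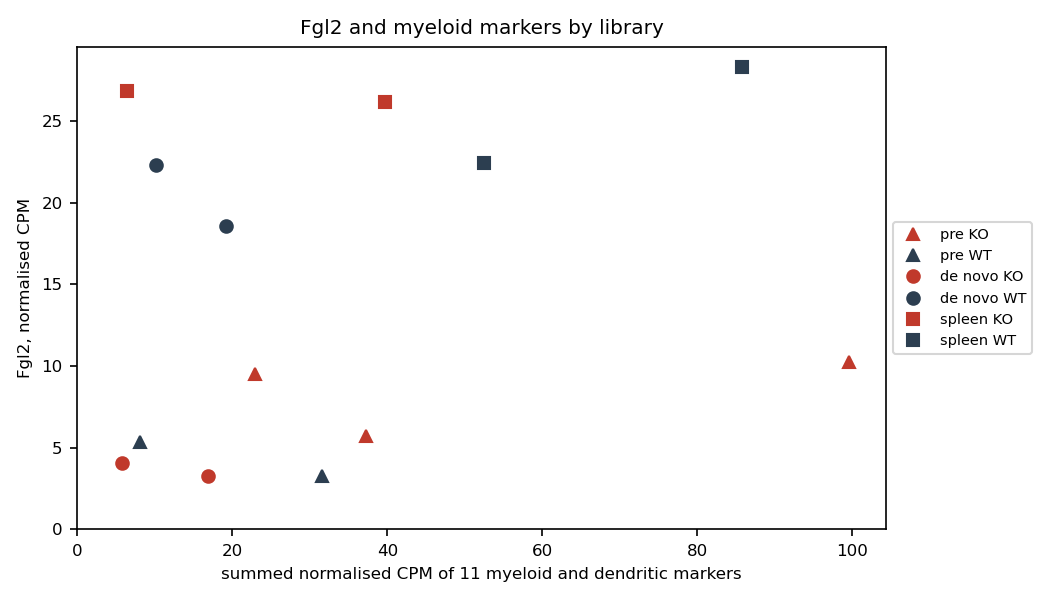
Fgl2 level (vertical axis, normalised CPM) against the summed level of 11 myeloid and dendritic markers (horizontal axis, normalised CPM) in the 13 libraries, KO in red and WT in dark blue, with 1 symbol per stage. The de novo circles span 5.76 to 16.8 CPM of markers in KO and 10.2 to 19.2 CPM in WT, and 3.28 to 4.05 CPM of Fgl2 in KO and 18.6 to 22.3 CPM in WT.

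Other markers also differed between the genotypes. The summed level of 6 B and plasma cell markers was 95.3 and 61.9 CPM in KO and 40.9 and 51.2 CPM in WT splenic libraries, non-overlapping ranges in which the KO libraries also had the higher Il10, Entpd1 and Nt5e. Most of that sum was Cd79b, at 57.2 CPM in KO and 36.2 CPM in WT (log2 fold change 0.66, adjusted p = 0.0435 by edgeR). Their part in the splenic values was not tested. At the de novo stage that sum was 39.2 and 35.4 CPM in KO and 33.2 and 31.5 CPM in WT libraries. The summed level of 5 erythroid and platelet markers was 0.630 and 0.953 CPM in KO and 96.2 and 2.76 CPM in WT de novo libraries, and without that first WT library Fgl2 differed by −2.60. CD8 and NK markers summed to 46.4 and 34.7 CPM in KO and 48.8 and 44.5 CPM in WT de novo libraries. The stroma sum was 326 and 329 CPM in KO and 243 and 243 CPM in WT de novo libraries, nearly all of it Pecam1 and Epcam, and the keratin gene Krt5 and the thymic cortex gene Psmb11 were at 0 there. Of the de novo markers tested edgeR called 2 of 4 B and plasma cell genes, Cd79b higher (adjusted p = 0.0452) and Ms4a1 lower (0.0475), and 1 of 5 CD8 and NK genes, Eomes, lower (0.0245). It also called 2 of 3 erythroid and platelet genes, Hba-a1 (0.0127) and Hbb-bs (0.0216), lower and 2 of 3 stroma genes, Epcam (0.00359) and Pecam1 (0.00693), higher. Of 6 CD4 T and Treg identity genes it called 2 higher, Ctla4 (0.00429) and Il2ra (0.00465). Il2ra had 1401 CPM in KO and 1034 CPM in WT de novo Tregs. The Il2ra call was lost with the spread shared over the 13 libraries. The part of these markers in the de novo values was not tested.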

How the data were processed

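The values used were the authors' deposited raw counts of reads per gene, 1 table per stage, and all 13 library columns were used. Named in the submitters' processing notes are GRCm38, featureCounts, limma, STAR 2.5.2, Subread 1.5.2, Picard 2.9.0, MultiQC and FastQC. The annotation release is not given in the sources used here, nor is the strandedness. Titles gave the groups and replicate numbers, and for KO pre-Tregs these differ from the numbers in the descriptions.

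Counts were tested in R 4.3.3 with edgeR 4.0.16 (TMM, filterByExpr at a minimum count of 10 and a minimum total of 15, quasi-likelihood F-test, Benjamini-Hochberg adjustment over all genes), separately at each stage and, for stage comparisons and differences of effects, on the 6 group means of all 13 libraries over the genes of all 3 tables. A gene was called, or said to rise or fall, at an adjusted p under 0.05. The SE was derived from the log2 fold change and the F statistic of the test. The 95% interval was derived from that SE and a quantile of the t distribution. Normalised CPM divides counts by the total over the 22048 shared genes and a TMM factor. The per kb values use the gene length deposited with the pre-Treg table.

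The mediators and the gene lists were chosen with earlier results of these data known. Named list genes are up to 3 called genes per list and comparison by adjusted p, without the mediators, and the 2 most alike genes per mediator with a mean of at least 1 CPM. Alternatives were RLE size factors, no count filter, DESeq2 1.42.0, limma-voom (limma 3.58.1), a replicate block, a spread shared over the 13 libraries, and leaving out each library. The test scripts were tested on simulated data. No replicate pair agreed within sampling noise (chi-square per degree of freedom 9.16 to 142).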

Additional observations from a re-analysis of the deposited data

Results flagged for a closer look

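The genotype effect on Fgl2 differed between 2 stages by a test of the difference itself. It was −3.46 on the log2 scale for de novo Tregs minus pre-Tregs (SE 0.42, adjusted p = 0.00601 by the edgeR quasi-likelihood test). Fgl2 was lower in both KO libraries than in both WT libraries in de novo Tregs and higher in all 3 KO libraries than in both WT libraries in pre-Tregs. The stages come from separate count tables, and the myeloid marker sum in the KO pre-Treg library with the most Fgl2 was 99.6 CPM. Its part in the pre-Treg value was not tested.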

How the results depend on the processing

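The lower Fgl2 in KO de novo Tregs was called under each alternative run for it, and its difference from pre-Tregs under each library left out. Leaving out 1 library gave 1 to 2 mediators called in de novo Tregs (3 as reported), 0 to 4 in splenic Tregs (0 as reported), 1 to 2 for the effect in de novo minus pre-Tregs (1), 0 to 1 for splenic minus pre-Tregs and for splenic minus de novo Tregs (0 in both), 0 for splenic against de novo WT Tregs (1) and 2 to 4 for the same step in KO Tregs (5). With a splenic KO library left out the spread comes from the WT pair alone, and the chi-square per degree of freedom was 41.6 for the KO pair and 9.16 for the WT pair, and 1548 or 2508 genes were called in place of 168. A spread shared over the 13 libraries left 1 mediator called in de novo Tregs, Fgl2 (adjusted p = 0.0014), where Adora2a had 0.474 and Ebi3 1. DESeq2 called 2 mediators in splenic Tregs, 2 for de novo minus pre-Tregs, 1 for splenic minus pre-Tregs, 1 for splenic minus de novo Tregs and 3 for splenic against de novo WT Tregs. Without a count filter these were 2 in splenic Tregs, 1 for splenic minus de novo Tregs and 2 for the WT step, and limma-voom gave 1 and 5 for the last pair. Counts over all genes moved too when no library was left out. They ran from 60 to 803 in splenic Tregs and 810 to 1583 for the WT step. For the differences of effects they ran from 3 to 213 (de novo minus pre-Tregs), 1 to 416 (splenic minus pre-Tregs) and 1 to 110 (splenic minus de novo). These mediator counts are not set against the share of each setting, so they cannot be read as results about the mediators.

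Libraries with the same title number did not deviate alike, with correlations of −0.168 and −0.158 in pre-Tregs, −0.011 in de novo and −0.113 in splenic Tregs. With so few libraries a group this check is weak. The description numbers of the KO pre-Tregs were not checked this way, so whether libraries were paired is not settled. A replicate block called 1 mediator in pre-Tregs, Lrrc32 (log2 fold change −1.39, adjusted p = 0.026 by edgeR), where it called 77 genes, 2 in splenic Tregs and 2 for the WT splenic step, and a block by the description numbers, added after seeing the data, again called 1 in pre-Tregs (Lrrc32, −1.75), among 490 genes. A crossed splenic block, also added after seeing the data, called 2 mediators and 803 genes, against 361 genes with the uncrossed block.

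Directions that turned belonged to differences that were not called. Over libraries left out, Ebi3 ran from −0.59 to 2.42 in pre-Tregs and −0.13 to 0.13 in splenic Tregs, Nt5e from −0.10 to 0.008 and Lrrc32 from −0.19 to 0.15 in de novo Tregs, and Fgl2 from −0.0893 to 0.24, Adora2a from −0.13 to 0.15 and Lrrc32 from −0.25 to 0.0065 in splenic Tregs. Splenic Ebi3 was −0.0056 with limma-voom, −0.0029 with the replicate block and −0.0031 with the crossed block. Adora2a in KO de novo against pre-Tregs ran from −0.25 to 0.28, and Lrrc32 in splenic against de novo Tregs from −0.30 to 0.0476 in KO and −0.18 to 0.13 in WT.

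Counts over all genes also moved between settings, and their moves are not compared in size with those of the mediators. Over all alternatives they ran from 0 to 490 in pre-Tregs (0 as reported), 100 to 1039 in de novo Tregs (766), 60 to 2508 in splenic Tregs (168), 35 to 327 over the stages (111), 3 to 213 for de novo minus pre-Tregs (11), 0 to 416 for splenic minus pre-Tregs (28) and 0 to 110 for splenic minus de novo Tregs (1). For the stage steps they ran from 1860 to 6534 in KO (4228) and 1274 to 4735 in WT (4015) from pre-Tregs to de novo Tregs, and from 619 to 2246 in KO (1681) and 257 to 1583 in WT (973) from de novo to splenic Tregs. With 2 or 3 libraries a group, and under 10 Il10 or Il12a counts in most thymic libraries, small differences in these genes were not detectable.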
